A study of Mus musculus with 4 samples.

Results

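The genes described here drive cell division: 38 genes, taken by symbol from the count tables, out of 24625 gene models. All 38 had a row in every table. By role, 11 belong to DNA replication and nucleotide supply, 4 regulate the step from G1 into S phase, and 23 act in G2 and mitosis, with the proliferation marker Mki67, the topoisomerase Top2a and the cyclin Ccna2 counted among the last. The high-fat group was 2 libraries of peritoneal macrophages from C57BL/6J mice given a diet with 60% of its energy from fat for 12 weeks, and the control group was 2 libraries from mice on standard chow. All mice, in both groups, were injected with 3% thioglycollate medium, a sterile irritant that recruits monocytes and macrophages into the peritoneal cavity, 4 days before the cells were taken, so the control cells too were elicited, and any resident macrophages still in the cavity were collected with them. The strain is given as C57BL/6 in the sample labels, and the sex and age of the mice, and whether a library is 1 mouse or a pool, are not stated in the labels. P-values therefore measure the spread between these libraries, which may be technical.

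A dividing cell copies its DNA in S phase and separates the copies in mitosis. In G1, cyclin D and cyclin E with their kinases release E2F factors, which switch on the genes for the replicative helicase, the sliding clamp and the enzymes that make DNA building blocks. The DREAM and MuvB-FOXM1 complexes, acting through promoter elements called CHR and through CCAAT boxes bound by NF-Y, restrict the mitotic genes to G2 and M. Macrophages are often out of cycle after recruitment as monocytes, but resident and, in some settings, inflammatory macrophages can divide locally, and genes such as Mki67 and Top2a are commonly read as signs of it.

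These factors act at promoters, and the following promoters are shown because they belong to members whose levels or diet differences are described below: the clamp gene Pcna, the helicase genes Mcm6 and Mcm5, the reductase gene Rrm1, the marker Mki67, and the mitotic genes Cdk1, Cdc20 and Kif11. Each run is the 200 bases before the annotated start, written 5′ to 3′ from RefSeq on GRCm38.p6, and capitals mark the searched motifs on either strand: an E2F word (TTTCCCGC, TTTCGCGC, TTTGCCGC or TTTGGCGC), a CHR word (TTTGAA or TTCGAA) or CCAAT.
Pcna chr2:132253181-132253380 (minus strand): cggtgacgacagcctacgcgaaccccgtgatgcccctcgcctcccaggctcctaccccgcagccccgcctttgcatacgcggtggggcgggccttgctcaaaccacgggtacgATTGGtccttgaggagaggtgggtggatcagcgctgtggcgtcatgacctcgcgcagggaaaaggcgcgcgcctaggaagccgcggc
Mcm6 chr1:128359706-128359905 (minus strand): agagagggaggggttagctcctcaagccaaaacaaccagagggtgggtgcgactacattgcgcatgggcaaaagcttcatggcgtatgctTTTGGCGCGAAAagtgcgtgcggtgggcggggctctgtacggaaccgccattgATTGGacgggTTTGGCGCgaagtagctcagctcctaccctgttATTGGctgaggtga
Mcm5 chr8:75109309-75109508 (plus strand): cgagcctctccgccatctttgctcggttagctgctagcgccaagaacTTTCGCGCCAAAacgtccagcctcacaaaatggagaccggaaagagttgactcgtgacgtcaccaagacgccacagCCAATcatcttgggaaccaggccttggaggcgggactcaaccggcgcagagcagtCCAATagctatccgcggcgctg
Rrm1 chr7:102441495-102441694 (plus strand): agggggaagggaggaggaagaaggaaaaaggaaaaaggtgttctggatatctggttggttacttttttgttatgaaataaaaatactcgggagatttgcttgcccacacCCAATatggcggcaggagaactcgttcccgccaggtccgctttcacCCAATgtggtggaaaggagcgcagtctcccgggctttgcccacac
Mki67 chr7:135716380-135716579 (minus strand): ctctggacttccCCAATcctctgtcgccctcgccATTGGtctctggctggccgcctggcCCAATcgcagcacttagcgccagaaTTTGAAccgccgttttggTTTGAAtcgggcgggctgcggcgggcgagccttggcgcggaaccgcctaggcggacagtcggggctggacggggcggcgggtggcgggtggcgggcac
Cdk1 chr10:69352913-69353112 (minus strand): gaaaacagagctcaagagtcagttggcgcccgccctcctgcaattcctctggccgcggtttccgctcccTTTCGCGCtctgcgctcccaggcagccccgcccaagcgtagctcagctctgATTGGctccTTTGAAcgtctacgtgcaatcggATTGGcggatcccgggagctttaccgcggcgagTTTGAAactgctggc
Cdc20 chr4:118437344-118437543 (minus strand): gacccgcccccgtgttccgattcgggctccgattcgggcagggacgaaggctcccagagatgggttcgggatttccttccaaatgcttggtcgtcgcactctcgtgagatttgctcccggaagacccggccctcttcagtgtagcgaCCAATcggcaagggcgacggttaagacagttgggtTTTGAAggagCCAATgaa
Kif11 chr19:37376182-37376381 (plus strand): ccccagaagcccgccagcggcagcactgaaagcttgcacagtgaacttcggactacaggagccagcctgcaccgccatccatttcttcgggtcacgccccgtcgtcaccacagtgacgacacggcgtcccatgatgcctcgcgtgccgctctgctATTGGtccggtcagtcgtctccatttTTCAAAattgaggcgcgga

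The Mcm6 and Mcm5 windows each hold a pair of E2F words on opposite strands that overlap and were counted separately; with a further word in Mcm6 this gave 3 matches in Mcm6 and 2 in Mcm5, and both windows hold 2 CCAAT boxes. The Cdk1 window holds 1 E2F word, 2 CHR words and 2 CCAAT boxes, and the Cdc20 and Kif11 windows hold a CHR word 18 and 19 bases before the start. Promoter entries existed for 31 of the 38 members, and none for Mcm4, Ccnd1, Ccne2, Ccna2, Aurkb, Kif20a and Tpx2. Over the 250 bases before the start, counting a gene when any of its entries matched, an E2F word was in 3 of 10 replication promoters (30%) and 1 of 19 mitosis promoters (5.26%), against 2.16% of 27025 genes with an entry. A CHR word was in 9 of 19 mitosis promoters (47.4%) and 2 of 10 replication promoters (20%), against 19.6% of all. CCAAT was in 17 of 19 mitosis and 8 of 10 replication promoters (89.5% and 80%), against 37.5% of all. These are letter matches, not measured binding.

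Cell cycle transcripts were present in both diets at very unequal levels. Pcna, the sliding clamp of the replication fork, which also serves DNA repair, was by far the most abundant member, at 385 ± 23.1 RPKM with high-fat diet and 351 ± 22.6 RPKM with control diet (RPKM, counts scaled to exon length and library total; SD, n = 2 each, as for all levels). Its level exceeded that of 98.4% of the 12747 genes tested. Pcna and Tyms have pseudogene copies among the mouse gene models, and each count table holds reads aligned at more than 1 place in a line apart from the genes. Reads that these genes share with a copy may therefore be missing from their levels, and the counting settings are not stated.

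The 6 subunits of the replicative helicase, Mcm2 to Mcm7, together form a ring, but their transcripts were not at like levels. Mcm6 stood at 12.5 ± 1.13 RPKM with high-fat diet and 12.2 ± 0.417 RPKM with control diet. Mcm4 stood at 5.93 ± 0.389 RPKM with high-fat diet and 5.63 ± 0.294 RPKM with control diet, and Mcm3 at 5.64 ± 0.435 RPKM with high-fat diet and 6.22 ± 0.374 RPKM with control diet. Mcm7 had 2.79 ± 0.00884 RPKM with high-fat diet and 2.70 ± 0.562 RPKM with control diet. Mcm5 had 1.29 ± 0.13 RPKM with high-fat diet and 1.44 ± 0.28 RPKM with control diet, and Mcm2 1.15 ± 0.218 RPKM with high-fat diet and 1.01 ± 0.107 RPKM with control diet. The Mcm6 level was 10.2 and 11.8 times that of Mcm2 in the high-fat libraries, and 11 and 13.4 times in the control libraries. In each library Mcm6 was the highest and Mcm7, Mcm5 and Mcm2 followed Mcm4 and Mcm3 in that order. The order of Mcm4 and Mcm3 was not the same in the 2 diets. As a multiple of Mcm2, Mcm4 stood at 4.76 and 5.68 in the high-fat libraries, against 5.39 and 5.81 in the control libraries. Mcm3 stood at 4.56 and 5.36 times Mcm2 in the high-fat libraries, below Mcm4 in both, against 5.98 and 6.39 in the control libraries, above Mcm4 in both. This is a description with no test. Mcm5 was close to Mcm2 in the high-fat libraries, at 1.06 and 1.2 times its level, against 1.51 and 1.33 times in the control libraries, also with no test.

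Ribonucleotide reductase, which makes deoxynucleotides, showed the same kind of gap between its subunits. Rrm1, the large subunit, had 10.9 ± 0.2 RPKM with high-fat diet and 9.26 ± 0.291 RPKM with control diet. Rrm2, the small subunit that is made mainly in S phase, had 0.928 ± 0.279 RPKM with high-fat diet and 0.753 ± 0.128 RPKM with control diet. The ratio of Rrm1 to Rrm2 was 15.2 and 9.61 in the high-fat libraries and 10.7 and 14.3 in the control libraries, so the diets overlapped. Tyms, thymidylate synthase, stood at 3.24 ± 0.156 RPKM with high-fat diet and 3.47 ± 0.296 RPKM with control diet. Tk1, cytosolic thymidine kinase, another S-phase enzyme, was the lowest replication member, with 20 and 13 counts in the high-fat libraries and 12 and 11 in the control libraries.

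Mitosis members were lower than replication members: their median level was 0.901 RPKM, against 3.35 RPKM for replication members and 5.20 RPKM for all genes tested, and 22 of the 23 lay under that last value. Tpx2, a spindle assembly factor that activates Aurora A, was the exception, at 10.5 ± 0.147 RPKM with high-fat diet and 8.85 ± 0.21 RPKM with control diet. Its partner Aurka had 0.93 ± 0.19 RPKM with high-fat diet and 0.871 ± 0.0139 RPKM with control diet. The ratio of Tpx2 to Aurka was 13.3 and 9.74 in the high-fat libraries, and 9.88 and 10.5 in the control libraries. Next came the spindle checkpoint gene Bub1b, at 2.85 ± 1.06 RPKM with high-fat diet and 4.15 ± 0.916 RPKM with control diet. Below it stood Top2a, which untangles chromosomes, at 2.69 ± 0.225 RPKM with high-fat diet and 2.42 ± 0.196 RPKM with control diet. The centromeric histone gene Cenpa had 1.91 ± 0.254 RPKM with high-fat diet and 2.08 ± 0.257 RPKM with control diet. Mki67 had 1.70 ± 0.269 RPKM with high-fat diet and 1.78 ± 0.127 RPKM with control diet, above 31.4% of the genes tested.

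At the low end, Cenpf, a kinetochore protein, had 0.163 ± 0.00545 RPKM with high-fat diet and 0.187 ± 0.0176 RPKM with control diet. Cdc20, the activator of the anaphase-promoting complex, had 33 and 13 counts in the high-fat libraries and 18 and 24 in the control libraries. Plk1, polo-like kinase, had 9 and 6 counts in the high-fat libraries and 7 and 8 in the control libraries, too few to be tested. The other mitosis members ranged up to 1.75 RPKM, the level of the cyclin gene Ccna2, and 12 of the 23 were under 1 RPKM. Among the G1/S regulators, Ccnd1, a cyclin that answers to growth factors, and the transcription factor gene E2f1 stood at 1.28 and 1.06 RPKM over the 4 libraries, and Ccne1 and Ccne2, the E cyclins, at 0.737 and 0.580 RPKM.

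**Figure D1:**
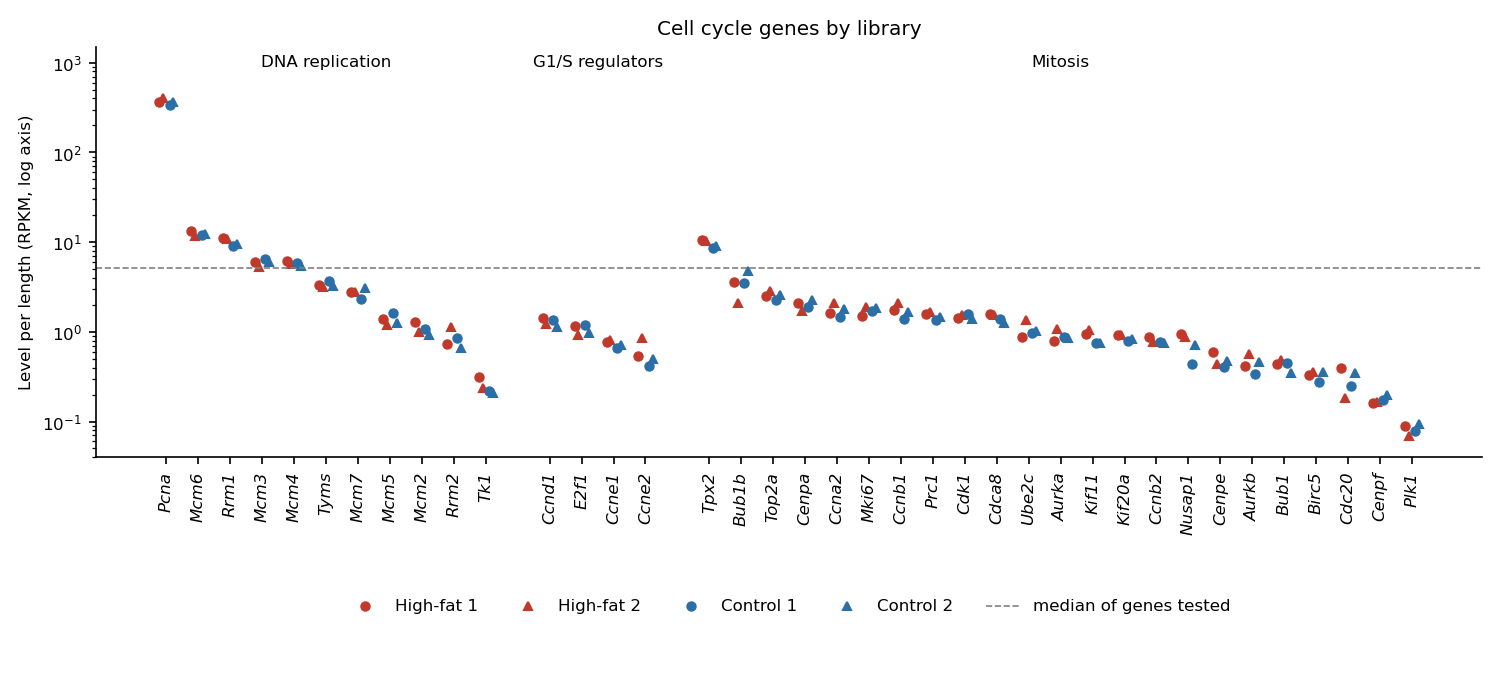
Level per length (RPKM, log axis) of the 38 members in each of the 2 high-fat and 2 control libraries, ordered by level within role, with the median of all genes tested (5.20 RPKM) as a dashed line. Pcna stands at 368 RPKM over the 4 libraries, Mcm6 and Rrm1 follow at 12.3 and 10.1 RPKM, and Tpx2 at 9.66 RPKM is the mitosis member above the dashed line.

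Gene totals ran from 40527591 to 45658551 counts in the high-fat libraries and from 39347347 to 39846646 in the control libraries. Macrophage markers were abundant throughout, with Emr1 (F4/80) at 45350 and 38527 counts in the high-fat libraries and 40899 and 40056 counts in the control libraries. Their sum, most of it Lyz2, was 19533 and 23920 CPM (CPM, counts scaled to the TMM-adjusted library total) with high-fat diet, against 26290 and 25186 CPM with control diet. Only 1 of 6 tested markers was above 0 on the log2 scale. The marker called, lower, was Mertk, at 40.6 and 32.9 CPM with high-fat diet, against 60.1 and 58.7 CPM with control diet. Markers of large peritoneal macrophages, which renew themselves locally, summed to 11.7 and 16.3 CPM in the high-fat libraries, against 37.2 and 13.1 CPM in the control libraries, with none of 6 tested markers called. B cell markers summed to 104 and 188 CPM in the high-fat libraries, against 118 and 108 CPM in the control libraries, with none of 6 tested markers called. T and NK cell markers summed to 2.76 and 15.7 CPM in the high-fat libraries, against 4.12 and 4.59 CPM in the control libraries, with none of 6 tested markers called. For mesothelial cells and fibroblasts the sum was 123 and 66.5 CPM in the high-fat libraries, against 16.6 and 23.7 CPM in the control libraries, with 8 of 8 tested markers above 0 on the log2 scale and 1 called higher. Plasma cell markers summed to 289 and 230 CPM in the high-fat libraries, against 212 and 177 CPM in the control libraries. Of these markers, 4 of 4 were above 0 and 1 was called higher. Most of the sum was Sdc1, not called, at 249 and 181 CPM with high-fat diet, against 174 and 141 CPM with control diet. The marker called, Igj, had 3.66 and 3.05 CPM with high-fat diet, against 0.596 and 1.21 CPM with control diet. Neutrophil markers summed to 75.3 and 60.9 CPM in the high-fat libraries, against 103 and 107 CPM in the control libraries, with 6 of 6 below 0 and 2 called lower. Dendritic cell markers summed to 3.83 and 4.33 CPM in the high-fat libraries, against 10.8 and 11.3 CPM in the control libraries, with 6 of 6 below 0 and 1 called lower. No marker in the lists for monocytes, eosinophils, mast cells, or erythroid cells and platelets was called. Eosinophil markers summed to 3.32 and 2.9 CPM with high-fat diet, against 7.35 and 15.6 CPM with control diet. The sums were 151 and 207 against 180 and 236 CPM for monocytes, and 33.2 and 49.3 against 42.4 and 31.7 CPM for mast cells. For erythroid cells and platelets they were 102 and 129 CPM with high-fat diet, against 135 and 110 CPM with control diet. Neutrophil and myeloid precursor markers were near 0, with a sum of 0.883 and 0.801 CPM in the high-fat libraries, against 1.17 and 1.11 CPM in the control libraries. Elane was at 0 in every library. High-fat replicate 2 was the highest library for the B cell and the T and NK cell sums, though the B cell marker Cd22 was lowest there (40.9 CPM). It was also the highest for the median of the mitosis members and for their full sum (138 CPM, with high-fat replicate 1 at 137 CPM). It was not the highest for the median of the replication members or for the mitosis sum without Tpx2. That last sum includes Bub1b, at 7.71 CPM in high-fat replicate 2 and 17.6 CPM in control replicate 2. These medians and sums are given below. The part of lymphocytes in the results was not tested.

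The diet comparison asked whether these transcripts differ between macrophages of fat-fed and chow-fed mice. None of the 37 members tested passed an adjusted p of 0.05 in edgeR's quasi-likelihood test, against 0.612% of all genes (78 of 12747, of which 0.322% higher and 0.290% lower). At an unadjusted p under 0.05 there were 3 members, all higher, against 17.0% of all genes in either direction and 8.56% higher. DESeq2 called no member, against 2.87% of all genes, and a fit with the replicate number as a block called none, against 0.886%. The share of all genes called moved with single libraries: leaving out high-fat replicate 1 gave 823 genes (6.46%), high-fat replicate 2 gave 452 (3.55%), control replicate 1 gave 16 (0.126%) and control replicate 2 gave 3 (0.0235%). The log2 fold change was above 0 for 28 of the 37 members, against 49.2% of all genes, with a median of 0.15 against -0.01 over all genes. The diets did not overlap, with high-fat on top, for 12 of the 37, against 26.1% of all genes, and with high-fat at the bottom for 2, against 24.9%. The 95% interval of the fold change lay within a log2 change of 1 in both directions for 31 of the 37 members, against 78.1% of all genes; smaller changes of either sign are inside most of these intervals.

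Among the replication members, 8 of 11 had a log2 fold change above 0, with a median of 0.08 and a range from -0.16 to 0.38, and 10 of 11 intervals lay within a log2 change of 1. Rrm1 had 44.3 and 43.2 CPM in the high-fat libraries, against 36.2 and 37.8 CPM in the control libraries. Both high-fat values were above both control values, at 1.18-fold, with a log2 fold change of 0.24 ± 0.10 (SE; 95% interval 0.02 to 0.46; adjusted p = 0.259, edgeR quasi-likelihood test), which did not pass over all genes. Pcna had 464 and 505 CPM in the high-fat libraries, against 422 and 462 CPM in the control libraries. High-fat replicate 1 lay close to control replicate 2, and the log2 fold change was 0.13 ± 0.11 (interval -0.11 to 0.37; adjusted p = 0.541, edgeR).

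The helicase genes had log2 fold changes from -0.16 (Mcm5) to 0.19 (Mcm2), on both sides of 0. Mcm3 had 17.2 and 15.4 CPM in the high-fat libraries, against 18.7 and 17.2 CPM in the control libraries, and was the replication member with both high-fat values below both control values, though high-fat replicate 1 and control replicate 2 are equal to the digits given. Its log2 fold change was -0.14 ± 0.13 (interval -0.44 to 0.16; adjusted p = 0.606, edgeR). Rrm2 had 1.59 and 2.45 CPM in the high-fat libraries, against 1.84 and 1.44 CPM in the control libraries, so the diets overlapped (log2 fold change 0.30 ± 0.30, adjusted p = 0.631, edgeR). Its value was -0.04 without high-fat replicate 2. Tyms was at -0.10 ± 0.14, and Tk1, which shares 88 exon bases with Afmid on the other strand, at 0.38 ± 0.45 with the widest interval of the group, -0.63 to 1.40.

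The 4 G1/S regulators gave no call, with a median log2 fold change of 0.15. Ccne2 had 1.72 and 2.78 CPM in the high-fat libraries, against 1.34 and 1.62 CPM in the control libraries. All of the high-fat values were higher, but high-fat replicate 2 set the size: the log2 fold change of 0.60 ± 0.31 (interval -0.09 to 1.29; adjusted p = 0.356, edgeR) was 0.22 without it. Of the 3220 exon bases of Ccne2, 1734 are shared with Ints8 on the other strand, and the labels do not say if reads were assigned by strand. The same holds for smaller stretches of Tk1, Ccna2 (Exosc9), Cdc20 (Elovl1), Kif20a (Brd8 and Cdc23) and Nusap1 (Oip5). Ccne1 had 1.51 and 1.58 CPM in the high-fat libraries, against 1.29 and 1.39 CPM in the control libraries (0.20 ± 0.27, adjusted p = 0.732, edgeR). Ccnd1 had 5.39 and 4.68 CPM in the high-fat libraries, against 5.12 and 4.3 CPM in the control libraries. E2f1 had 3.62 and 2.83 CPM in the high-fat libraries, against 3.73 and 2.99 CPM in the control libraries. In both of these genes the gap between the libraries of each diet was wider than the gap between the diets. The log2 fold change was 0.10 ± 0.19 for Ccnd1 (interval -0.33 to 0.53; adjusted p = 0.818, edgeR) and -0.06 ± 0.23 for E2f1 (interval -0.58 to 0.46; adjusted p = 0.915, edgeR).

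Among the mitosis members, 17 of the 22 tested had a log2 fold change above 0, with a median of 0.17 and a range from -0.54 to 0.68, and for 7 the diets did not overlap with high-fat on top, against 26.1% of all genes. Tpx2 had 46.2 and 45.3 CPM in the high-fat libraries, against 38 and 39.3 CPM in the control libraries. The diets did not overlap, at 1.18-fold (log2 fold change 0.24 ± 0.10, interval 0.03 to 0.46, adjusted p = 0.254, edgeR), and over the alternatives the adjusted p ran from 0.164 to 0.613. Nusap1, a microtubule-bundling protein of the spindle, had 2.82 and 2.58 CPM in the high-fat libraries, against 1.29 and 2.09 CPM in the control libraries. Control replicate 1 was the low library, and the log2 fold change of 0.68 ± 0.28 (interval 0.04 to 1.32; adjusted p = 0.272, edgeR), the largest of the members, was 0.37 to 1.06 with 1 library left out. In Nusap1, 208 exon bases are shared with Oip5 on the other strand.

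Kif11, the kinesin that pushes spindle poles apart, had 4.52 and 5.08 CPM in the high-fat libraries, against 3.58 and 3.66 CPM in the control libraries. Both high-fat values were higher, at 1.33-fold (log2 fold change 0.41 ± 0.19, interval -0.02 to 0.84, adjusted p = 0.312, edgeR). Bub1b, which encodes BubR1 of the spindle checkpoint (chromosome 2: 118423947 to 118467328, mm9, plus strand), went the other way, with 13.2 and 7.71 CPM in the high-fat libraries, against 12.9 and 17.6 CPM in the control libraries. High-fat replicate 2 was the low library and high-fat replicate 1 lay between the controls, so the diets overlapped (log2 fold change -0.54 ± 0.28, interval -1.22 to 0.14, adjusted p = 0.384, edgeR). Without high-fat replicate 1 its log2 fold change was -0.98 ± 0.22 with an adjusted p of 0.000714, the one call of a member in any alternative, in a fit that called 6.46% of all genes and assumes that the lone high-fat library varies like the controls. Over the alternatives the adjusted p ran from 0.000714 to 0.809. Its checkpoint partner Bub1 had 1.9 and 2.1 CPM in the high-fat libraries, against 1.96 and 1.52 CPM in the control libraries.

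The remaining mitosis members did not pass the test either. Cdk1, the kinase that starts mitosis, had a log2 fold change of 0.00 ± 0.19, with 4.03 and 4.41 CPM in the high-fat libraries, against 4.47 and 3.94 CPM in the control libraries. Mki67 had 15.2 and 19 CPM in the high-fat libraries, against 17 and 18.8 CPM in the control libraries, and for both genes the diets overlapped; the interval of Mki67 was -0.40 to 0.27. Top2a was at 0.15 ± 0.14, Ccnb1, the main mitotic cyclin, at 0.34 ± 0.21, and Ccnb2 at 0.10 ± 0.29. The kinesin Kif20a and the spindle midzone protein Prc1 had log2 fold changes of 0.18 and 0.20 with both high-fat libraries higher, as did Cdca8 (0.25), whose chromosomal passenger partners Aurkb and Birc5 stood at 0.28 and 0.14 with overlapping diets. Cenpf had both high-fat libraries lower, at -0.20 ± 0.25, with Cenpa at -0.13 and Cenpe at 0.24. Among tested mitosis members with a promoter entry, the 9 with a CHR word had a median log2 fold change of 0.10 and the 9 without one 0.20.

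**Figure D2:**
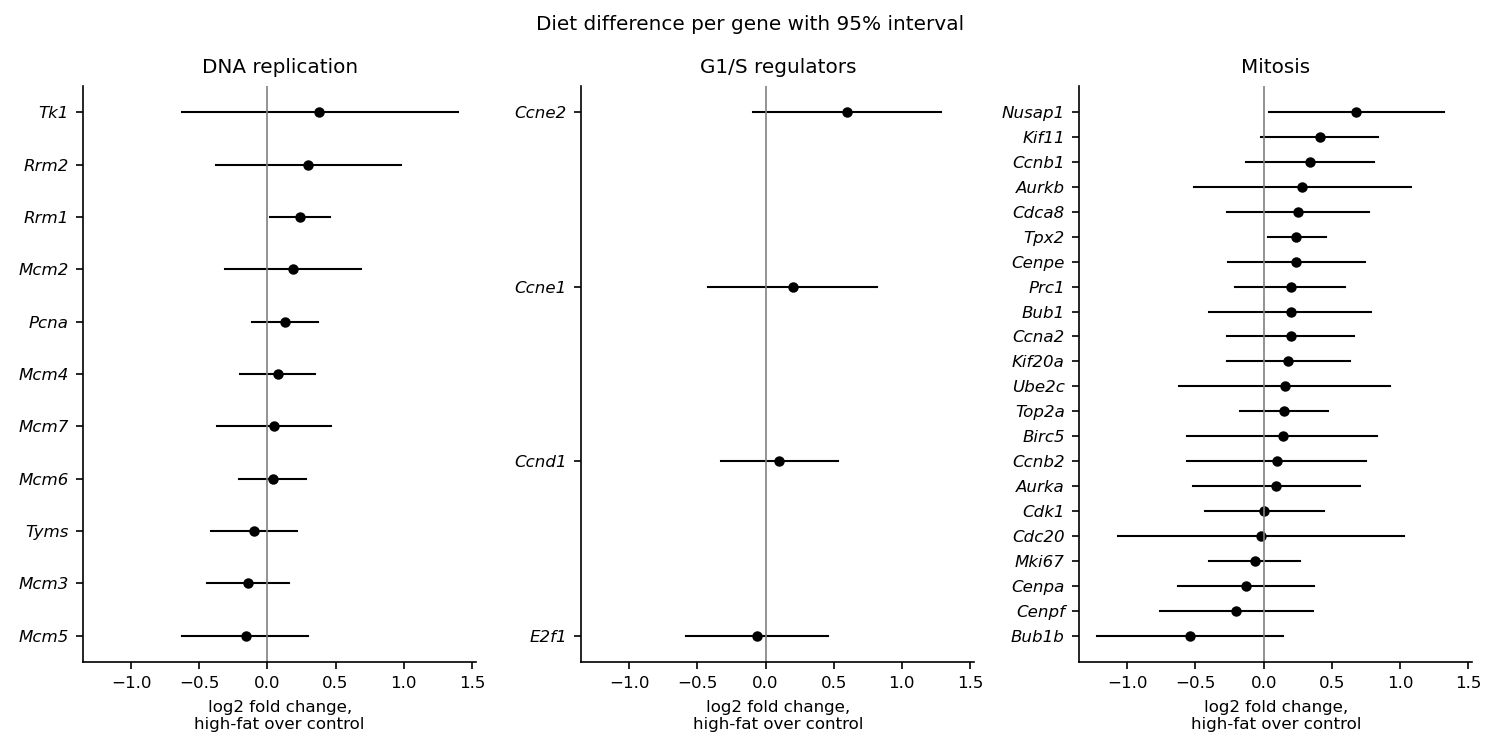
Log2 fold change (high-fat over control) of the 37 members tested, by role, with the 95% interval as a line. The intervals of Rrm1, Tpx2 and Nusap1 lie above 0 before adjustment over all genes, and the intervals of the scarce genes Tk1 and Cdc20 are the widest.

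Mitosis and replication members were also compared library by library. Relative to each gene's mean of the 4 libraries, the median log2 level of the mitosis members was 0.03 and 0.12 in the high-fat libraries, against -0.14 and -0.05 in the control libraries. Both high-fat medians were above both control medians, with the nearest libraries at 0.03 in high-fat replicate 1 and -0.05 in control replicate 2. For the replication members it was 0.02 and -0.04 in the high-fat libraries, against 0.01 and -0.09 in the control libraries, which overlap. High-fat replicate 1 was above high-fat replicate 2 for 8 of 11 replication members and 9 of 22 mitosis members, against 54.9% of all genes. Control replicate 1 was above control replicate 2 for 7 of 11 replication members and 5 of 22 mitosis members, against 51.3% of all genes. These counts were not tested. Summed over all 23 mitosis members, the untested Plk1 included, the level was 137 and 138 CPM in the high-fat libraries, against 122 and 135 CPM in the control libraries. Without Tpx2 it was 90.8 and 93.1 CPM in the high-fat libraries, against 84.2 and 95.7 CPM in the control libraries, which overlap. In bulk RNA, a different share of dividing cells and a different amount of these transcripts per cell cannot be told apart.

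**Figure D3:**
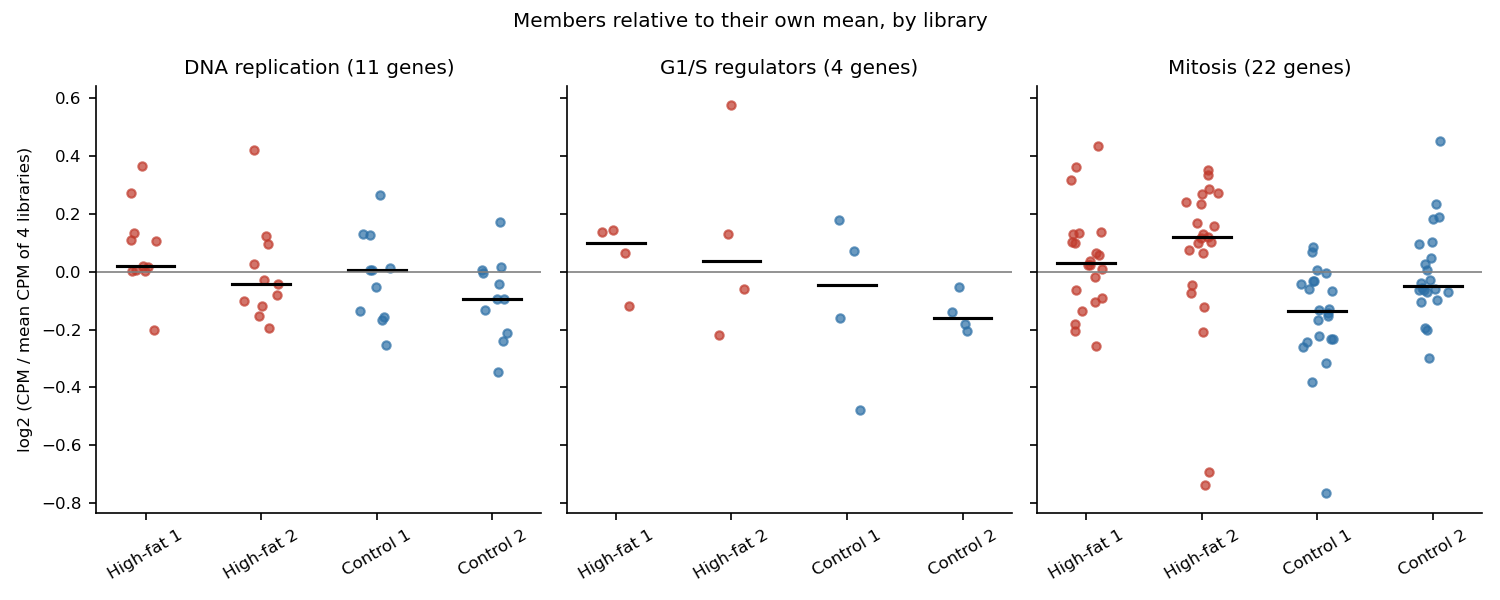
Log2 of each tested member's CPM over its mean of the 4 libraries, by library and role; points are genes and black bars medians. The mitosis medians are 0.03 and 0.12 in the high-fat libraries and -0.14 and -0.05 in the control libraries, with the points of all 4 libraries overlapping.

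Other genes of the same machinery, from lists of textbook members, were read beside these. Of 47 genes of origin licensing and the replication fork, 35 had a log2 fold change above 0, with a median of 0.13, against 49.2% and -0.01 for all genes. The diets did not overlap, with high-fat on top, for 20 of the 47, against 26.1% of all genes, and with high-fat at the bottom for 8, against 24.9%. EdgeR called none, against 0.612% of all genes, DESeq2 called none, against 2.87%, and 3 had an unadjusted p under 0.05, against 17.0%. The smallest p belonged to Tipin, a fork protection factor, with 18.8 and 20.4 CPM in the high-fat libraries, against 13.1 and 14.5 CPM in the control libraries (0.51 ± 0.13, adjusted p = 0.116, edgeR). Orc2, of the origin recognition complex, had 71.3 and 64.8 CPM in the high-fat libraries, against 52.2 and 56.2 CPM in the control libraries (0.33 ± 0.10, adjusted p = 0.164, edgeR). Orc5, of the same complex, had 65.1 and 67.4 CPM in the high-fat libraries, against 50.5 and 60.2 CPM in the control libraries (0.26 ± 0.11, adjusted p = 0.274, edgeR). In these 3 genes both high-fat libraries were higher. Rfc2, of the clamp loader, had both lower, with 15.1 and 10.6 CPM in the high-fat libraries, against 17.3 and 16.4 CPM in the control libraries (-0.39 ± 0.17, adjusted p = 0.294, edgeR).

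Of 52 tested genes of mitosis and cytokinesis, 38 were above 0 with a median of 0.20, against 49.2% and -0.01 for all genes. Neither edgeR nor DESeq2 called any, against 0.612% and 2.87% of all genes. The diets did not overlap, with high-fat on top, for 22 of the 52, against 26.1% of all genes, and with high-fat at the bottom for 7, against 24.9%. At an unadjusted p under 0.05 there were 4 of the 52, against 17.0% of all genes. Cep55, of the final cut between daughter cells, had 3.19 and 3.5 CPM in the high-fat libraries, against 1.86 and 2.22 CPM in the control libraries (0.71 ± 0.23, adjusted p = 0.181, edgeR). Hmmr, a spindle protein and hyaluronan receptor, had 2.65 and 2.73 CPM in the high-fat libraries, against 1.39 and 1.78 CPM in the control libraries (0.76 ± 0.25, adjusted p = 0.19, edgeR). Ckap2, a microtubule-associated protein, had 1.46 and 1.1 CPM in the high-fat libraries, against 0.77 and 0.67 CPM in the control libraries (0.83 ± 0.33, adjusted p = 0.254, edgeR). In these 3 genes both high-fat libraries were higher. Incenp, the scaffold of the chromosomal passenger complex, had both lower, with 6.33 and 6.48 CPM in the high-fat libraries, against 9.54 and 8.24 CPM in the control libraries (-0.47 ± 0.16, adjusted p = 0.2, edgeR).

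Cyclin and kinase control genes were centred on 0, with 23 of 39 tested genes above 0 and a median of 0.02, and 6 had an unadjusted p under 0.05, against 17.0% of all genes. The diets did not overlap, with high-fat on top, for 5 of the 39, against 26.1% of all genes, and with high-fat at the bottom for 5, against 24.9%. Cdkn1c, an inhibitor of cyclin-dependent kinases, fell and was the gene called in this list, by edgeR and by DESeq2, with 19 and 14.2 CPM in the high-fat libraries, against 37.6 and 40.5 CPM in the control libraries (log2 fold change -1.23 ± 0.15, adjusted p = 0.0161, edgeR). Its call ended without either control library. Rb1, the retinoblastoma protein that holds E2F, had 79.1 CPM in each high-fat library, against 93.3 and 108 CPM in the control libraries (-0.35 ± 0.10, adjusted p = 0.156, edgeR). The repressor gene E2f6 had 29.5 and 28.3 CPM in the high-fat libraries, against 22 and 20.2 CPM in the control libraries (0.45 ± 0.11, adjusted p = 0.109, edgeR). Wee1, the kinase that restrains Cdk1, had 19.1 and 19.8 CPM in the high-fat libraries, against 15.8 and 15.1 CPM in the control libraries (0.34 ± 0.12, adjusted p = 0.231, edgeR). For these 3 genes the diets did not overlap, but none passed over all genes.

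**Figure D4:**
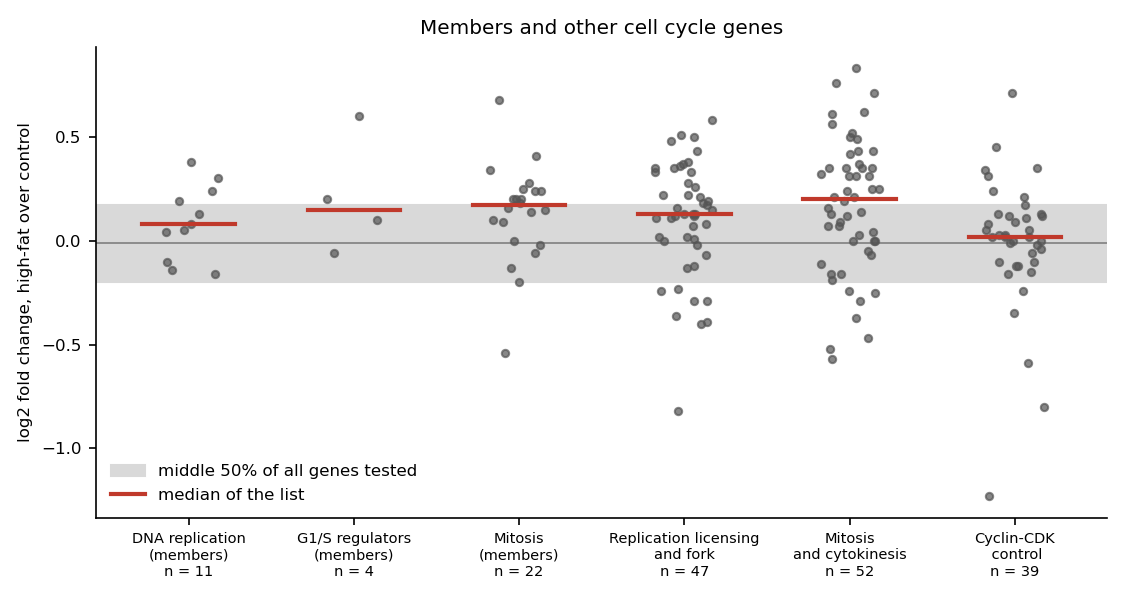
Log2 fold change (high-fat over control) of tested genes in the 3 groups of members and in 3 lists of other cell cycle genes; points are genes, red bars list medians, the grey band the middle 50% of all genes tested (-0.20 to 0.17) and the grey line their median. The medians of the replication and mitosis groups lie between 0.08 and 0.20, and the lowest point of the cyclin and kinase list is Cdkn1c at -1.23.

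The log2 fold change varied with base composition over all genes. Whether this trend accounts for the medians of the members was not tested. The fifth of genes with the lowest transcript GC content (median 41.9%) had a median log2 fold change of 0.12, and the fifth with the highest (57.7%) had -0.20. Median GC content was 47.5% for the mitosis members, 49.1% for the replication members, 51.8% for the G1/S regulators and 49.8% for all genes. With the trend on GC content and exon length removed, an alternative chosen after seeing the data, the median was 0.07 for the mitosis members, 0.01 for the replication members and 0.16 for the G1/S regulators, against -0.02 for all genes. In that fit 27 of 37 members were above 0, among them 17 of 22 mitosis members and 6 of 11 replication members, and none was called. The median was 0.09 for the list of other mitosis genes and 0.07 for the list of other fork genes.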

How the data were processed

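Gene expression was measured by RNA-seq of ribosomal RNA-depleted total RNA in 4 libraries, 2 per diet. Each library has a deposited table of raw counts, 1 whole number for every gene model. The submitters' processing notes name HTSeq, TopHat2 2.0.10 and Cufflinks 2.1.1 with the mm9 build, without order, settings or strand. The authors' deposited gene models gave other values, exon positions on mm9. The 5 summary lines per table were left out. The line for alignments at more than 1 place held 37.5% to 48.5% of all counts in a table. The line for no gene held 13.5% to 15%. Replicates differed beyond sampling noise (chi-square per degree of freedom 28.9 for high-fat and 27.7 for control).

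Genes were kept by filterByExpr (minimum count 10, minimum total 15) and tested with edgeR 4.0.16 (R 4.3.3): TMM, robust quasi-likelihood test, diet as the only term, 2 residual degrees of freedom, Benjamini-Hochberg over 12747 genes, threshold 0.05. SE is the log2 fold change over the root of F, and 95% intervals use the total degrees of freedom (median 9.32). RPKM uses exon-union length. Scripts were tested on simulated data. Alternatives used DESeq2 1.42.0, limma 3.58.1 (voom), other scalings, filters and gene sets, a replicate block, and each library left out. Members and lists were chosen with earlier results of these data known. Full statistics are given for the 4 members with the smallest p per role and for the 4 genes with the smallest p, or called, per other list; cell type markers are given by their summed CPM. Other members are described by level and fold change.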

Additional observations from a re-analysis of the deposited data

How the results depend on the processing

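No member was called in 14 of 15 alternatives; the exception was Bub1b, lower without high-fat replicate 1, so that the count of mitosis members called was 0 to 1 with 1 library left out. Over all genes 78 were called, against 366 by DESeq2, 28 by limma-voom, 522 with no low-count filter, 46 with 1 CPM in 2 libraries, 138 with the GC content and length trend removed (chosen after seeing the data, over 12148 genes), and 3 to 823 with 1 library left out. The median log2 fold change ran from 0.01 to 0.09 for replication members, 0.11 to 0.18 for G1/S regulators and 0.10 to 0.23 for mitosis members with 1 library left out, and was 0.01 and 0.07 for replication and mitosis members with the GC content and length trend removed. Of 178 values of the 12 members with full statistics under the alternatives, 171 kept their direction and side of the threshold. Those that changed sign were Rrm2 without high-fat replicate 2, Ccnd1 without high-fat replicate 1 (-0.01) or control replicate 2, and E2f1 without high-fat replicate 2, without control replicate 1 (0.10) or with the GC content and length trend removed (0.14). With 1 library left out, Rrm2 ran from -0.04 to 0.58, Ccnd1 from -0.02 to 0.22 and E2f1 from -0.25 to 0.11. The causes were not tested.

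With the replicate number as a block, 113 genes (0.886%) and no member were called, and the medians were 0.08, 0.15 and 0.16 for replication, G1/S and mitosis members. The deviations of libraries with the same number correlated at 0.0888 over genes, and the labels do not say that the number marks anything shared. Of the other lists, Tipin and E2f6 were called higher with no low-count filter, Pbk and Ccnd2 higher and Rfc2 lower without high-fat replicate 1, and Rb1 lower with the GC content and length trend removed. Counts under about 50 per library, as in Plk1, Cdc20, Tk1, Aurkb and Ube2c, limit what can be detected for those genes.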
